A study of Mus musculus with 65 samples.

Results

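The regions described here are CTCF sites that recurred in primary mouse blood cells and had no peak in the erythroid cell line G1E-ER4+E2. The peaks of 11 primary CTCF lists and of the 14 cell line CTCF lists graded Pass were joined wherever 1 bp or more was in common, which gave 66618 sites. Of these, 11649 had a peak in 8 or more of the primary lists, and 929 of the 11649 had a peak in none of the 14 cell line lists (7.97% of these sites). They are called absent sites. The 5126 sites with a peak in 8 or more primary lists and in all 14 cell line lists (44%) are called shared sites and are the reference throughout. Both sets were selected on the measured peak calls of the primary and cell line lists, so the differences between them are descriptions and carry no test.

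The primary CTCF libraries came from bone marrow of young male C57BL/6 mice, sorted by surface markers into 8 populations. These were LSK (hematopoietic stem and progenitor cells, 2 libraries), CMP (common myeloid progenitors), MEP (megakaryocyte-erythroid progenitors), CFUE (colony-forming erythroid cells), ERY (erythroblasts, 2 libraries), GMP (granulocyte-monocyte progenitors), CFUMk (colony-forming megakaryocytic cells) and iMk (immature megakaryocytes, 2 libraries). The CMP and GMP libraries were graded Low pass and the other 9 Pass. G1E-ER4 is a line of erythroid progenitors derived from mouse embryonic stem cells, which lacks GATA1 and carries a GATA1 protein switched on by estrogen. The suffix +E2 means that the cells had received β-estradiol, here always for 24 hours. The labels give no strain for the line, and none says that its libraries came from separate cultures. The same antibody was used throughout, but primary cells were fixed longer than the study's methods give for the line. The study's retrospective experiments, which include some cell line libraries used here, were made under varied conditions, among them different ways of fixation. A composite input served for most earlier cell line libraries, whereas an input was sequenced for each primary population. Fixation, input, cell number and cell source therefore cannot be told apart. The lists held 6629 to 36481 peaks in primary cells and 10655 to 21986 in the cell line, with −log10 p of at least 5 for every peak. Read depth is not part of the peak lists and is unknown here.

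CTCF is a zinc finger protein that binds DNA at a long motif and, with the ring-shaped cohesin complex, anchors chromatin loops and the borders of domains. It also acts as an insulator between enhancers and promoters. Most of its sites are occupied in many cell types, and a minority change with the cell type or in culture. Its motif can hold the dinucleotide CpG, the target of DNA methylation in mammals, and methylation within a site is known to weaken binding, as at the imprinted H19-Igf2 control region. CpG islands are stretches of DNA with many CpG, found at many promoters. DNA methylation was not measured in these libraries.

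The sequences that follow are shown for the CpG they carry, which differed between absent and shared sites. Each is the best 19-bp match to the CTCF motif in the middle 400 bp of a site, read 5′ to 3′ along the motif from the mm10 (GRCm38) reference, with every CpG in capitals. The first 8 belong to the absent sites that ranked highest in the primary lists among those called in all 11.
Grm4 promoter, chr17:27520762-27520780 (minus strand): CGgccaCGaggCGgCGctg
Myrf promoter, chr19:10240797-10240815 (minus strand): gtacCGccagagggCGctg
Zfhx3 intron, chr8:108911726-108911744 (minus strand): tgacctacaggtgtCGccc
Kcnab2 intron, chr4:152435444-152435462 (minus strand): cctcctgtagggggCGctg
upstream of Zfpm1, chr8:122259540-122259558 (minus strand): ctaccagcagtgggcagca
intergenic, nearest start Galnt17, chr5:130853528-130853546 (minus strand): ctacCGgcagggggCGctc
near the Spry2 start, chr14:105899028-105899046 (plus strand): gagcCGccagggggCGagc
Vsir promoter, chr10:60346842-60346860 (plus strand): cCGcccctCGggggCGctg

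The next 8 belong to the absent sites with the most CpG in their middle 200 bp, leaving out 1 in a Synpo exon and 1 without a match.
Cacna1a coding exon, chr8:84639401-84639419 (minus strand): gagcCGccagggggCGctg
Dlgap4 promoter, chr2:156720942-156720960 (minus strand): gggcCGccagggggCGCGc
Kmt5b promoter, chr19:3768801-3768819 (plus strand): CGgcCGgaagggagCGgta
Prrt3 coding exon, chr6:113494692-113494710 (minus strand): tCGcCGacagggggCGccc
Kctd6 promoter, chr14:8214107-8214125 (plus strand): cCGcCGatagggggCGtcc
Zzz3 promoter, chr3:152395902-152395920 (plus strand): ccaccagtaggtggCGCGc
Meaf6 promoter, chr4:125085090-125085108 (minus strand): tggcCGccagggggCGCGa
Fam160b1 promoter, chr19:57361007-57361025 (minus strand): CGgcctgcaggggaCGctg

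The last 8 belong to the shared sites that ranked highest among those called in all 11 primary lists, leaving out 1 in a Ctif intron.
Snx29 intron, chr16:11423606-11423624 (plus strand): tcaccaccaggggccactc
Sec22c intron, chr9:121697925-121697943 (plus strand): tggccaccagggggcactg
Dus3l promoter, chr17:56763385-56763403 (plus strand): tgcacagaagaggaCGgag
Nemp1 non-coding exon, chr10:127674803-127674821 (plus strand): agaccagaagagggtgaca
Arid3a promoter, chr10:79925408-79925426 (minus strand): aggcCGccaggtggtgcta
Gdf15 coding exon, chr8:70629892-70629910 (minus strand): cCGcCGgcagggggCGcCG
intergenic, nearest start Ankrd9, chr12:110992215-110992233 (minus strand): tgacaagcaggggtCGctg
upstream of Cirbp, chr10:80165144-80165162 (minus strand): tggccactagaCGtCGcca

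Of the 8 strongest absent sites called in all 11 lists, 7 carried CpG at position 15 of the motif (counted from 1 at its 5′ end) and 3 at position 5. All 8 of the CpG-richest absent sites carried it at position 15 and 6 at position 5, which their choice by CpG count favours. Of the 8 strongest shared sites called in all 11 lists, 4 had CpG at position 15 and 2 at position 5, and 3 had no CpG in the match. Among these, the sites at Snx29 and Sec22c were made of a short unit, motif included, repeated end to end. The part of such repeats in their rank was not tested. The CpG-richest absent site lay in a coding exon of Cacna1a, a calcium channel gene, and is shown over its middle 200 bp, which held 40 CpG.
Cacna1a coding exon, chr8:84639357-84639556 (plus strand): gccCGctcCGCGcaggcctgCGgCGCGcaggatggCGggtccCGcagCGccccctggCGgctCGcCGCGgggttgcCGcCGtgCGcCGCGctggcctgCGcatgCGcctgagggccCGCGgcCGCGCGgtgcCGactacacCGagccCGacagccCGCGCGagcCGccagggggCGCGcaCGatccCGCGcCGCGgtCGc

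Among the absent sites called in all 11 primary lists, the strongest lay at the promoter of Grm4, a metabotropic glutamate receptor gene, and its middle 200 bp held 22 CpG.
Grm4 promoter, chr17:27520693-27520892 (plus strand): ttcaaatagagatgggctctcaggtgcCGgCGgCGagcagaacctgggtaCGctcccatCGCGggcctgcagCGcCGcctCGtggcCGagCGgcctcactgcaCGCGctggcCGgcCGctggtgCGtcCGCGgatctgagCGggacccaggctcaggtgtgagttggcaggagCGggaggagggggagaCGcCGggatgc

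The absent sites were called less often in the erythroid primary lists than the other sites were. There are exactly 8 non-erythroid lists, so a site without the 3 erythroid ones must be in all of the others, and high shares there follow from the rule. The lists of LSK, CMP, MEP, GMP, CFUMk and iMk each called between 95.9% and 100% of the absent sites. CFUE called 32.8%, ERY replicate 1 called 25.9% and ERY replicate 2 called 19.7%. The same 3 lists called 72.6%, 74.4% and 65.6% of the shared sites, and 58.3%, 56.9% and 47.4% of all 11649 sites. The erythroid lists were also the 3 shortest of the primary lists, with 11990, 8284 and 6629 peaks. Of the 929 absent sites, 521 (56.1%) were called in none of the 3 erythroid lists, 189 in 1, 117 in 2 and 102 (10.98%) in all 3, whereas 2667 of the 5126 shared sites (52.0%) were called in all 3. Most absent sites were thus also without a call in the primary erythroid populations, and 87 were called in all 11 primary lists.

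**Figure D1:**
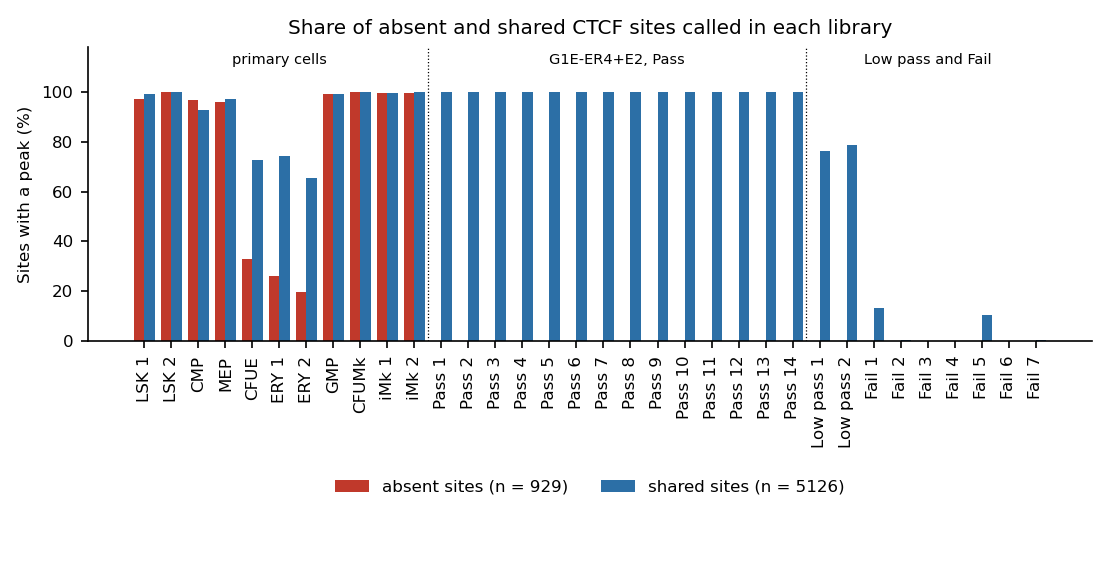
Percent of the 929 absent sites (red) and of the 5126 shared sites (blue) with a peak in each CTCF library, for primary cells on the left, the 14 Pass libraries of the line in the middle and its Low pass and Fail libraries on the right. The zeros and the full bars in the middle are set by the rule; in CFUE and ERY the absent sites reach 19.7% to 32.8%, and in the right-hand panel only the blue bars rise visibly above 0.

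Absent sites were weaker than shared sites, and they were called less often in the erythroid lists within each class of strength. Strength was taken as the median, over the 8 non-erythroid primary lists, of the percentile of the peak by −log10 p (100 is the strongest peak of a list). It had a median of 68.0 in absent sites (quartiles 55.4 and 81.4) and of 82.2 in shared sites (70.8 and 90.9). Among sites between percentiles 80 and 90, CFUE called 42.1% of the 159 absent sites, against 77.0% of the 1398 shared sites, and ERY replicate 1 called 33.3%, against 81.1%. Above percentile 90, CFUE called 51.1% of 90 absent sites, against 90.3% of 1423 shared sites. The share of sites that were absent was 11.3% below percentile 50 and 4.64% above percentile 90, so that absence was more common among weak sites but not limited to them.

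The classes just inside and just outside the rule were as follows. Exactly 8 primary lists called 581 of the 929 absent sites, 9 lists called 170, 10 lists called 91 and 11 lists called 87. Just outside, 552 sites had a peak in 7 primary lists and none in the cell line, and 300 had a peak in 8 or more primary lists and in 1 cell line list. When any 1 of the 8 non-erythroid lists (LSK, CMP, MEP, GMP, CFUMk or iMk) was left out and 8 of the remaining 10 were still required, 348 to 372 sites were left, since most absent sites lack the 3 erythroid lists. Requiring all 8 non-erythroid lists and disregarding the erythroid ones gave 835 absent sites.

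Absent sites were rich in CpG. Of the 929, 297 (32.0%, Wilson 95% interval 29.1% to 35.04%) overlapped a CpG island (at least 500 bp with 55% GC and an observed-to-expected CpG ratio of 0.65), against 638 shared sites (12.4%, 11.6% to 13.4%) and 14.2% of all 11649 sites. The intervals cover counting over sites only. The median CpG count in the middle 200 bp was 5 in absent sites (quartiles 3 and 13) and 3 in shared sites (2 and 6), and 310 absent sites (33.4%) held 10 or more CpG, against 503 shared sites (9.81%). Seen from the islands, 17.98% of the 1652 sites in CpG islands were absent from the line, against 6.32% of the 9997 sites elsewhere.

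The share in CpG islands fell off steeply after the absent sites. It was 13.3% in the 300 sites called in 1 of the 14 cell line lists, 18.03% in the 233 called in 2, 21.7% in the 184 called in 3, and between 9.26% and 19.5% in the classes called in 4 to 14 lists. Sites called once in the line were thus nearer to shared sites than to absent sites by this measure. Most of the sites called in 1 to 3 lists owe a call to 1 library, Pass replicate 14, the longest list of the line, which called 77.7% of those 717. Without it the rule gave 1135 absent sites, of which 27.4% were in islands. The 552 sites with 7 primary calls and no cell line call were in between, at 22.8%.

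The island share was higher in absent sites in every class of strength. Below percentile 50, 16.7% of 162 absent sites were in islands, against 5.63% of 213 shared sites, and between percentiles 80 and 90 the values were 44.7% and 11.3%. Above percentile 90 they were 45.6% of 90 absent sites and 22.3% of 1423 shared sites. The absent sites called in all 3 erythroid lists had the higher island share, at 44.1% of 102, against 17.7% of the 2667 shared sites of that kind. Those called in no erythroid list stood at 26.9% of 521, against 5.10% of 608 shared sites. Without the 3 erythroid lists the island share of the 835 absent sites was 32.7%, against 13.3% of the shared sites.

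**Figure D2:**
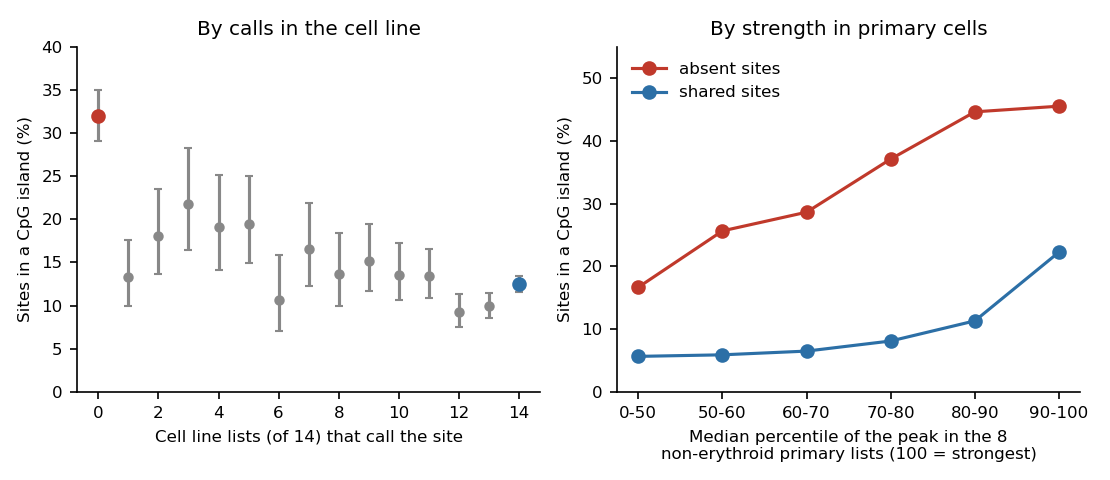
Left, percent of sites of 8 or more primary lists that overlap a CpG island, by the number of the 14 cell line lists that call them, with Wilson 95% intervals (red, absent sites at 0 lists; blue, shared sites at 14). Right, the same percent in absent (red) and shared (blue) sites by the median percentile of the peak in the 8 non-erythroid primary lists; absent sites run between 16.7% and 45.6% and lie above shared sites in each class.

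GC content moved with the same contrast. The middle 200 bp had a median GC of 55.5% in absent sites and 51.0% in shared sites. The share of sites absent from the line was 3.14% of 1847 sites under 45% GC, 6.86% of 3395 sites at 50% to 55%, 13.8% of 785 sites at 60% to 65% and 28.7% of 696 sites at 65% or more. Within the last class it was 29.0% of the 566 sites with an observed-to-expected CpG ratio of 0.65 or more and 27.7% of the 130 sites under it, while at 60% to 65% GC it was 17.6% of 239 and 12.1% of 546. The highest class of GC thus had a like share of absent sites with and without an excess of CpG. The part of base composition in peak detection was not tested.

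The motif was present in most absent sites and held CpG more often. A match with a chance of 1e-04 per position or less was found in the middle 400 bp of 829 absent sites (89.2%) and of 4835 shared sites (94.3%), and at 9.36% and 12.3% of the positions 10 kb downstream. Among sites with a match, 65.5% of absent sites and 53.4% of shared sites had at least 1 CpG within it. In percentage points the excess was largest at 2 places. CpG began at position 5 in 20.1% of the absent matches (17.6% to 23.01%), against 8.77% of the shared matches (8.00% to 9.60%), and at position 15 in 52.5% (49.1% to 55.9%), against 41.6% (40.2% to 43.0%). Both places held CpG in 14.8% of absent matches and 5.03% of shared matches. The excess was not limited to positions 5 and 15. CpG began at position 1 in 11.3% of absent and 5.32% of shared matches, and at position 2 in 8.20% and 4.28%. In the 77 absent sites with a match that were called in all 11 primary lists, position 5 held CpG in 39.0% and position 15 in 71.4%, against 11.7% and 45.5% of the shared sites called in all 11.

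**Figure D3:**
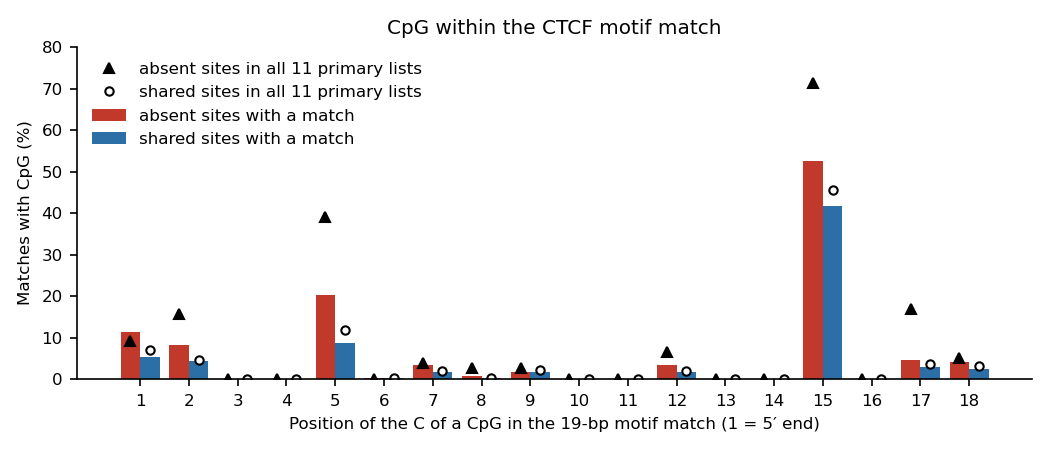
Percent of motif matches with a CpG beginning at each position of the 19-bp CTCF motif, in absent (red) and shared (blue) sites with a match, and in those called in all 11 primary lists (triangles, absent; circles, shared). Positions 5 and 15 stand out, with 20.1% and 52.5% in absent sites.

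The share of absent sites was highest with CpG at both motif positions, also outside CpG islands. Over all sites with a match, 5.91% of the 5920 with no CpG at either position were absent from the line, 8.02% of the 3889 with CpG at position 15 alone, 11.03% of the 399 with CpG at position 5 alone and 19.1% of the 645 with CpG at both. Outside islands the values were 5.42% of 5607, 6.72% of 3287, 7.17% of 265 and 13.1% of 275. There the interval with CpG at both positions (9.61% to 17.6%) lay above that with neither (4.86% to 6.05%). The intervals for position 15 alone (5.92% to 7.63%) and position 5 alone (4.64% to 10.9%) overlapped the one with neither. At 50% to 55% GC outside islands, 9 of 79 sites with CpG at both positions were absent (11.4%, interval 6.11% to 20.3%), against 107 of 1768 with neither (6.05%, 5.03% to 7.26%), and these intervals overlap. At 55% to 60% GC, 13 of 78 sites with CpG at both positions were absent (16.7%, interval 10.0% to 26.5%), against 74 of 932 with neither (7.94%, 6.37% to 9.85%). The median motif score of absent sites was 16.8, against 17.97 in shared sites. The matrix was learned from peaks of the cell line, which hold none of the absent sites. A matrix learned from LSK peaks found a match in 88.8% of absent sites. With it, CpG lay in 65.6% of absent matches and 53.5% of shared matches.

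Promoters and coding exons took a larger part of the absent sites than of the shared sites. Within 1 kb of an annotated transcript start lay 281 absent sites (30.2%, 27.4% to 33.3%) and 992 shared sites (19.4%, 18.3% to 20.5%). Coding exons away from promoters held 33 absent sites (3.55%) and 90 shared sites (1.76%), introns 280 (30.1%) and 1996 (38.9%), and the space between genes 316 (34.0%) and 1836 (35.8%). The promoter difference lay in those with islands: 16.4% of the 1292 sites at promoters with a CpG island were absent, against 6.62% of the 1043 at promoters without one. The share was 23.6% of the 360 island sites away from promoters and 6.29% of the 8954 sites with neither. In coding exons within islands 24 of 57 sites were absent (42.1%, 30.2% to 55.02%). These included exons of Prrt3, of Dmrt3 and Rax (developmental transcription factors), of Ptprs (a receptor phosphatase) and of Sptbn4 (a spectrin of axons). Sites made mostly of soft-masked repeats were few, at 3.55% of absent and 6.20% of shared sites.

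The lists of peaks as a whole were compared over libraries. On average 12.05% ± 1.64 of the peaks of a primary library overlapped a CpG island (SD, n = 11), against 8.29% ± 0.67 in the cell line (SD, n = 14). Primary libraries spanned 9.80% to 15.1% and cell line libraries 7.41% to 9.58%, with no overlap (two-sided permutation test, 100000 resamples, adjusted p = 5e-05, from the smallest p that the resamples can give). At promoters lay 17.1% ± 1.81 and 14.5% ± 0.75 of the peaks (adjusted p = 7.5e-05). Fewer primary peaks held a motif match, 82.7% ± 11.8 (61.9% to 93.7%), against 93.0% ± 3.75 in the line (83.6% to 95.4%). Among the 5000 strongest peaks of each library these means were 91.9% and 94.3%. The part of peaks without a match in the island difference was not tested. The share of motif matches with CpG was 49.8% ± 3.56 and 47.6% ± 1.31 (adjusted p = 0.0515), and the median CpG count per peak was 3 in all 11 primary libraries and 3 in 11 of the 14 cell line libraries (adjusted p = 0.23), so these 2 differences did not pass the test. The absent sites are themselves among these peaks. In a comparison added after seeing the data, with their peaks removed, the primary libraries averaged 11.2% in islands, against 8.29% (adjusted p = 5e-05 by permutation). The removal took peaks from the primary lists only. It left sites without a cell line call that had a peak in fewer than 8 primary lists. The comparison used the lists that chose the sites and is not independent of that choice. With only the 5000 strongest peaks of each library the values were 17.6% ± 3.33 and 11.04% ± 1.39. These tests weigh only how much libraries vary, and in the line that variation may be technical.

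**Figure D4:**
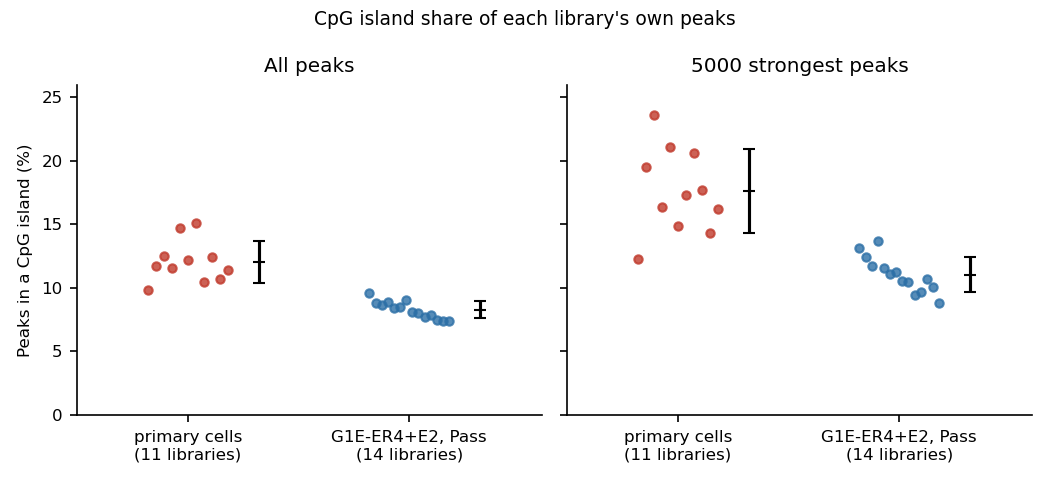
Percent of each library's peaks that overlap a CpG island, for all peaks (left) and for the 5000 strongest by −log10 p (right), with the mean and SD beside the points (11 primary and 14 cell line libraries). Over all peaks the primary libraries lie between 9.80% and 15.1%, above the cell line's 7.41% to 9.58%; for the strongest peaks the ranges, 12.3% to 23.6% and 8.80% to 13.7%, overlap.

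The 9 cell line CTCF libraries that the rule did not use were examined next. The 2 Low pass CTCF libraries of the line called 0 of the 929 absent sites each, against 76.2% and 78.6% of the shared sites. The 7 Fail libraries called at most 1 absent site each, and from 0% to 13.4% of the shared sites. Over the 9 libraries the mean difference was -19.9 percentage points, lower for absent sites in 8 libraries and 0 for both sets in 1. It was -12.9 without Low pass replicate 1 and -12.6 without Low pass replicate 2. Since both sets were chosen on other libraries of the same line, this direction follows from the choice, and no test is given. The same libraries called on average 0.31% of the 717 sites with 1 to 3 cell line calls, against 0.0120% of the absent sites. It was lower for absent sites in 3 of the 9, too few differing libraries for a test to reach the threshold. The nearest peak of any of the 14 Pass lists was a median of 27398 bp away from an absent site, and 15 absent sites (1.61%) had one within 500 bp.

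The strongest absent sites, taken among the 87 called in all 11 primary lists, lay at genes of many functions. Of the absent sites called in fewer lists, 2 had a higher median percentile, in an intron of Zfp516 (99.5 over 9 lists) and near Crybb2 (99.2 over 8 lists). At the Grm4 promoter (chr17:27520306-27521300) the fold enrichment was lowest in ERY replicate 2 at 10.9, had a median of 39.4 and was highest in GMP at 125. The site at the promoter of Myrf, a transcription factor of myelinating cells (chr19:10240370-10241301), had a lowest value of 10.1, a median of 45.1 and a highest of 143. Over the 11 lists their median percentiles were 99.1 and 98.9. Both were low in ERY replicate 2, at percentiles 26.8 and 15.0. Next in rank were a site in an intron of Zfhx3, a large homeobox factor (median percentile 98.4), and one in Kcnab2, a potassium channel subunit gene (97.4). A site with no CpG in its middle 200 bp (chr8:122259092-122260502, 96.9) lay 22562 bp from the start of Zfpm1, whose product FOG1 is the cofactor of GATA1. Further members of the 20 strongest lay near Spry2 (an inhibitor of receptor tyrosine kinase signalling), at the promoters of Vsir (an immune checkpoint receptor), Cdk17, Dagla (an enzyme of endocannabinoid synthesis), Them6 and Zzz3 (a subunit of a histone acetyltransferase complex), near Bcl6 (a repressor of germinal centre B cells) and 92122 bp from Irf8 (a myeloid and dendritic cell factor). Of the 20, 8 were at promoters, 8 overlapped an island and 18 had a motif match.

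The 10 absent sites with the most CpG held 32 to 40 CpG in 200 bp, and the 200-bp window with the most CpG among shared sites held 29. Behind the Cacna1a exon came the promoter of Dlgap4 (a postsynaptic scaffold gene) with 36, a coding exon of Synpo (an actin-associated protein) with 34, the promoter of Kmt5b (a histone H4 methyltransferase) with 34, and a Prrt3 exon with 33. Promoters of Kctd6, Zzz3, Meaf6 (a subunit of histone acetyltransferase complexes) and Fam160b1 followed with 32 or 33. All 10 lay in CpG islands, 7 at promoters and 3 in coding exons. Their median percentiles over the lists that called them spanned 38.0 to 91.1, so that the CpG-richest absent sites included weak and strong ones.

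Genes of several fixed lists had an absent site within the gene or 10 kb around it, which held for 781 of 21911 protein-coding genes (3.56%). Shared sites lay as near to 4961 of the 21911 (22.6%). In the Hox clusters, whose genes pattern the body axis and of which Hoxa9 acts in blood progenitors, 9 of 39 genes had one, and 5 had a shared site. These 9 rest on only 3 sites, at the promoters of Hoxa3 (20 CpG in 200 bp), Hoxa10 (13 CpG) and Hoxb5 (19 CpG), each in an island and each called in 8 primary lists. Among growth suppressor genes 3 of 20 had absent sites, and 8 had a shared site. At Hic1, a repressor named for its methylation in cancer, 3 neighbouring island sites lay in a coding exon with 9 CpG and at the promoter with 23 and 10, and at Cdkn2b, which encodes a cyclin-dependent kinase inhibitor, the site lay at the promoter with 18 CpG. The 2 sites of Dapk1 were intronic, with 3 CpG each.

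Genes of the list for chromatin and methylation were also among those with absent sites. Dnmt3a, which encodes a de novo DNA methyltransferase, had 1 at a promoter island (18 CpG) and 1 in an intron (3 CpG), Tet1, which encodes an enzyme that oxidizes methylated cytosine, had 1 at its promoter (3 CpG, no island), and Stag2, a cohesin subunit gene, had 1 at its promoter island (31 CpG). They were 3 of the 14 chromatin and methylation genes listed, of which 5 had a shared site. Each of their absent sites was called in 8 primary lists. The median percentiles were 47.5 and 27.3 at Dnmt3a, 47.1 at Tet1 and 72.6 at Stag2. Among germline genes, often methylated in somatic cells, 1 of 25 had an absent site (4%), near the share of all protein-coding genes. It lay at the promoter island of Dazl (29 CpG). Of 26 imprinted genes 1, Peg13, had an absent site (3.85%), also near the share of all protein-coding genes. The 56 genes of the protocadherin clusters, where CTCF sites select promoters, had none, with 21 near a shared site. Neighbouring genes of a cluster can share a site, so the 56 are not separate counts to set against 3.56%.

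Lineage genes were mixed. None of 16 erythroid regulators had an absent site within 10 kb, against 3.56% of all protein-coding genes, and 9 had a shared site. A list of 16 genes is too short to tell none from so low a share. Zfpm1, a gene of this list, had an absent site 22562 bp from its start, beyond the limit of 10 kb. Among genes of erythroid products, Ank1 (ankyrin of the red cell membrane) and Slc25a37 (the mitochondrial iron importer) had one in islands, with 15 and 19 CpG. Of 8 megakaryocyte genes 2 had one, in an intron of Vwf (5 CpG, 10 primary lists) and, beside Itga2b, at the promoter of Fam171a2. Cebpa, the factor of granulocyte commitment, had one at its promoter island (15 CpG), and Bcl11b, a T cell factor, had one in an intron. They were 1 of 9 granulocyte and monocyte genes and 1 of 16 lymphoid genes, of which 3 and 5 had a shared site. Among developmental transcription factors Tbx2 had 3 adjoining island sites of 25, 13 and 10 CpG beside the gene, Neurog2 had 1 and Irx5 had 1. They were 3 of the 38 listed, and as many of the 38 had a shared site. Of 458 zinc finger protein genes 13 had one (2.84%), near the share of all protein-coding genes.

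The absent sites were unevenly spread over chromosomes. Their share of the sites of 8 or more primary lists was highest on chromosomes 10 (11.3%, 70 of 618, interval 9.06% to 14.1%), 15 (10.9%), 14 (10.7%), 4 (10.55%) and 6 (10.0%), and lowest on chromosomes 19 (3.85%, 16 of 416, 2.38% to 6.16%), 7 (4.66%), 9 (4.73%), 16 (4.91%) and 3 (4.94%). Chromosome X had 5 of 73. The intervals take sites as independent, but absent sites often lay next to each other, so the intervals are too narrow. The spread over chromosomes was not tested. On chromosome 19, 12 of the 16 absent sites were in islands, against 16 of 70 on chromosome 10. Chromosomes 7 and 1, with 57.7% and 53.6%, had the largest shares of shared sites.

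**Figure D5:**
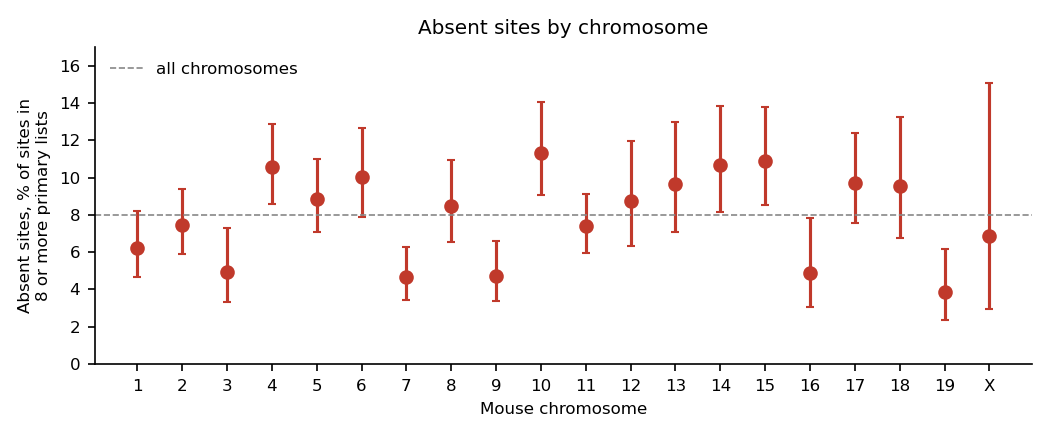
Absent sites as a percent of the sites in 8 or more primary lists on each mouse chromosome, with Wilson 95% intervals, which take sites as independent. The dashed line is the share over all chromosomes, 7.97%. The shares run between 3.85% on chromosome 19 and 11.3% on chromosome 10.

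Absent sites lay next to each other. When the 11649 sites were taken in order along each chromosome, the next site after an absent site was absent in 271 of 929 cases (29.2%, against 7.97% of all sites). In 61 runs of 3 or more absent sites without another such site between them stood 242 members (26.05%), 90 pairs held 180, and 507 stood alone. Within 100 kb of another absent site lay 373 members (40.2%). The runs were poorer in islands than the rest: 18.2% of run members were in islands, with a median of 4 CpG, against 36.8% of all other members, with a median of 6 CpG. Of the 507 sites that stood alone 44.4% were in islands, with a median of 8 CpG. Sites that stood alone were thus more often in islands than sites in runs.

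The longest run had 8 sites on chromosome 5 (chr5:113179824-113580890) over 2900026A02Rik, Tmem211, Sgsm1, Aym1 and Wscd2. Its sites were called in 8 to 11 primary lists with 1 to 18 CpG in 200 bp, and a run of 5 over Myo18b, Grk3 and the crystallin genes Crybb2 and Crybb3 (chr5:112870415-113091855) preceded it. The next had 7 sites over Pcbd1, Sgpl1 (an enzyme that degrades sphingosine phosphate), Tbata and Adamts14 (chr10:61068151-61216229), of which 3 were called in all 11 primary lists and 1 was in an island. Runs of 6 lay over Hhipl1, Cyp46a1 and Eml1 (chr12:108292749-108494914), over the trefoil factor genes Tff3, Tff2 and Tff1 with Tmprss3, Ubash3a and Slc37a1 (chr17:31119189-31331918), over Chd5, Kcnab2 and Nphp4 (chr4:152342922-152531439), and around Gadl1 and Tgfbr2, a receptor of transforming growth factor β (chr9:115704060-116426895). Among the runs of 5 were those of Bcl6 and of Nfatc2, Atp9a and Sall4. A run of 4 spanned Dlk1, Rtl1 and Dio3, an imprinted region, with 1 island site.

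In 39 of the 61 runs no CTCF peak of any of the 14 Pass lists lay between the first and the last site, which the definition of a run favours. For another factor in the same line, TAL1 peaks were counted. The runs together spanned 20.4 Mb and held 4 of the 11582 merged sites of the 10 Pass lists of TAL1, an erythroid transcription factor. That is 0.20 per Mb, against 4.25 per Mb over the genome and 8.20 per Mb over the 619 runs of 3 or more shared sites. At the absent sites themselves TAL1 peaks lay at 4 (0.43%), against 249 shared sites (4.86%) and 406 of all 11649 sites (3.49%). The 4 were at the promoters of Smim13, Cxxc1 and Brd7 and within Cln8.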

How the data were processed

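CTCF ChIP-seq peak lists of 11 primary and 23 cell line libraries and TAL1 lists of the same line were used. The authors mapped reads to mm10 (GRCm38) with Bowtie (version 1.0.0 per the submitters' processing notes, an earlier version in the study's methods) and called peaks of each library with MACS. The deposited lists hold the fold enrichment, a ratio over background, and the −log10 of the p-value of each peak. The deposited FDR column was not used. Grades (Pass, Low pass, Fail) are the labels'. Depth is not given, so the number of peaks limits precision.

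Site middles were medians of primary peak middles. Islands were computed from the RefSeq copy of GRCm38 (21521 islands, 0.862% of the genome). A 19-bp matrix was learned from the 2000 strongest peaks of 1 cell line library. Genes were GENCODE M21. Library means were compared by permutation over 11 and 14 libraries, with Benjamini-Hochberg adjustment over 5 tests (the last, on calls in unused libraries, is not read as a test since the choice of sites fixes its direction), in Python 3 with NumPy and SciPy, tested on simulated data. The alternatives are in the closing section. Sites named are the 20 of highest rank in all 11 lists, members of runs, the 10 with most CpG and members near listed genes. Outside this rule, some coding exon sites in islands were named as examples. The absent sites with a TAL1 peak or a call in a Fail library were also named. The absent sites and the gene lists were chosen with earlier results of these data known. 1 library labelled TAL1 in its title and CTCF in its antibody label was kept by title. A few results, among them 1 run and part of 1 gene list, are not reported here.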

Additional observations from a re-analysis of the deposited data

Results flagged for a closer look

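Among the 7 Fail CTCF libraries of the cell line, replicate 2 stood apart in the share of absent sites it called, at 0.11% (1 of 929), where the other 6 called 0. The site (chrX:145514736-145515431) lay 9935 bp from the start of Amot, was called in 8 primary lists, had 3 CpG in its middle 200 bp and held no motif match. This library listed 17343 peaks but called 0.29% of the shared sites. 2 groups of values were examined for such samples, and chance flags about 1 in 20 groups.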

How the results depend on the processing

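The number of absent sites moved most with the lists required. It was 2116 with 6 of the 11 primary lists, 178 with 10 and 87 with all 11, 372 with 7 or more of the 9 Pass lists, and 302 when primary peaks needed a −log10 p of at least 10. Leaving out 1 library gave 348 to 1135 sites, 27.4% to 40.8% of them in islands and a median of 5 to 7 CpG. The island share was 26.4% with 6 lists, 46.1% with 10 and 46.0% with 11, with a median of 4, 9 and 10 CpG, and 27.0%, 39.3% and 42.5% at promoters. A looser island definition (200 bp, 50% GC, ratio 0.6) put 54.6% of absent and 35.3% of shared sites in islands. A promoter window of 500 bp held 26.8%, a wider one 36.2%, and promoters of protein-coding genes alone 24.54%. A motif threshold of 1e-05 left 72.2% of absent sites with a match, and a consensus search put CpG in 57.5% of matches. Runs limited to 100 kb between neighbours held 138 members.

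Chosen after seeing the data, requiring all 3 erythroid lists left 102 absent sites, 44.1% in islands with a median of 9 CpG, and keeping only the sites of highest rank in the non-erythroid lists left 249, 44.98% in islands with a median of 9. In each of these settings the absent sites had the higher island share.

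Over libraries, the median CpG count (difference 1 with the 5000 strongest peaks, adjusted p = 2.5e-05 by permutation) and the CpG in the motif (5.07 percentage points, adjusted p = 2.5e-05) passed the test with the strongest peaks. Leaving out 1 library gave 1.65 to 2.79 points for the motif, and 6 of these 25 settings passed. For calls in the unused libraries, absent minus shared sites gave -22.4 to -12.6 points when 1 library was left out, and -0.298 points against sites in 1 to 3 lists, values that carry no test. Added after seeing the data, leaving out the peaks of absent sites gave 2.96 points for islands, 2.02 for promoters, 1.46 for the motif and 0.12 for the median CpG count, and the first 2 of these 4 passed the test. This comparison is not independent of the choice of sites, which used the same lists. The causes were not tested. No paired analysis was possible because no replicate number links a primary library to one of the cell line. Depth is unknown, so a site without a peak may have been missed.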

Other observations

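Some of the runs of absent sites lay among gene segments of the antigen receptors, which are rearranged in lymphocytes. On chromosome 14, 4 neighbouring absent sites (chr14:53682413-53741833) stood among segments of the T cell receptor α locus, including Trav7-6 and Trav13-3, and 3 more (chr14:52915264-52945727) among Trav12d-2 and its neighbours. On chromosome 12, 3 absent sites over 1921 kb (chr12:114047737-115968321) lay among heavy chain variable segments. None of these 10 sites was in a CpG island. Near-identical copies among such segments can share reads, so these sites are uncertain.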
